A study of Homo sapiens with 3 samples.

Results

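The TBX2 and TBX4 locus on chromosome 17 was described as it appears in 2 lists of chromatin immunoprecipitation peaks from A2780, a human ovarian cancer cell line. A peak belonged to the locus when its table line carried the symbol TBX2, TBX4 or C17orf82, or when it lay in hg19 chr17:59400000-59600000. By this rule the locus held 15 of the 25592 peaks in both lists, 0 of 11565 Flag-USP39 peaks and 15 of 14027 POLR2A peaks. The members were chosen by the positions and symbols of listed peaks in these same data, so their number and place are given as a description with no test.

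The study had 3 libraries, each the only one of its group. An anti-Flag precipitation was made from A2780 cells with Flag-tagged USP39, and an anti-POLR2A precipitation served as the positive control named by the series. The third library was input, 10% of the genomic DNA, against which both lists were called. The labels do not say how the tagged protein was expressed.

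The Flag-USP39 list held 62327 tags in peaks and the POLR2A list 86228, while the number of mapped tags was not used here. The smallest listed peak had 3 tags for Flag-USP39 and 4 tags for POLR2A, at p-value thresholds of 1e-05 and 1e-04, so a place without a peak is one where none passed at this depth. Of all protein-coding genes, 2.47% had a Flag-USP39 and 11.1% a POLR2A promoter peak. Of 7 ovarian or epithelial marker genes none had a promoter peak in either list. Any Flag-USP39 peak was listed for 2 of the 7, WT1 and KRT8, and any POLR2A peak for 3, these and PAX8. Those peaks held 3 to 5 tags, and 25.1% and 33.2% of protein-coding genes had any peak. MUC16, EPCAM, KRT7 and KRT18 had no peak at all. Of 4 fibroblast markers, COL1A2 and PDGFRA had a Flag-USP39 promoter peak, of 3 and 5 tags. COL1A1 and COL1A2 had a POLR2A promoter peak, of 4 and 8 tags. Any peak was listed for 2 of the 4 for Flag-USP39 and for 3 for POLR2A. An exon peak of COL1A2 held 10 Flag-USP39 tags and overlapped a POLR2A peak of 5 tags. The 3 leukocyte markers had no peak, and of 2 endothelial markers CDH5 alone had peaks, none at its promoter. The part of other cell types in the values at TBX2 was not tested.

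TBX2 and TBX4 encode T-box transcription factors, a family that binds DNA through a conserved domain called the T-box and directs the development of limbs, heart and lung. TBX2 acts mainly as a repressor of transcription, is known for holding back cell cycle inhibitor genes such as CDKN1A, and lies in a stretch of 17q23 that is amplified in some breast cancers. TBX4 is known for its part in hindlimb and lung development. USP39 is a ubiquitin-specific protease family member known as a splicing factor of the tri-snRNP, and POLR2A is the largest subunit of RNA polymerase II, which transcribes messenger RNA genes.

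In the peak tables TBX2 (NM_005994) ran on the plus strand of hg19 from 59477256 to 59486827. The antisense gene TBX2-AS1 started 289 bp before it at 59476967 and ran the other way to 59470816. The small gene C17orf82 (NM_203425), which RefSeq now names LINC02875 and classes as a long noncoding RNA, started 2284 bp beyond the end of TBX2 at 59489111. BCAS3, a long neighbouring gene on the plus strand, ended at 59470199, and its introns held the first 3 peaks of the locus.

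TBX4 had no Flag-USP39 and no POLR2A line in the tables. In the gene order of RefSeq assembly GRCh38.p14 it follows LINC02875 and precedes NACA2. The RefSeq promoter table matched 1 of the 3 members, TBX4. Its window is shown because no other member was matched. TBX4 is also the member at which neither antibody gave a peak, in contrast to TBX2. The start is the one given by RefSeq, and whether transcription begins there in these cells was not tested. The window holds 250 bases before and 50 after that start, at GRCh38.p14 chr17:61456238-61456537 on the plus strand. Capitals mark 2 motif matches.
TBX4 start region: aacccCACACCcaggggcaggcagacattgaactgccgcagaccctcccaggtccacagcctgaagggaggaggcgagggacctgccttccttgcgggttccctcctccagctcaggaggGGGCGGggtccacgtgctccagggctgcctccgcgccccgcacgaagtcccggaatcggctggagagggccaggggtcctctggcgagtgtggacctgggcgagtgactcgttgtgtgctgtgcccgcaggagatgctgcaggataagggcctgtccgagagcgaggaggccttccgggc
The first capitals are the T-box core GGTGTG, read on the reverse strand as CACACC, and the second are GGGCGG, the GC box bound by Sp1. Both strands were searched, and the matches do not overlap. The longer T-box half-site AGGTGTGA, which contains the core, and the TATA box TATAAA were not in these letters. Of 35116 promoter windows of the same length, 16.8% held GGTGTG, 45.0% GGGCGG, 0.98% AGGTGTGA and 11.5% TATAAA. The TBX4 window had 68.3% G and C, against a median of 58.7%, and 18 CG pairs against 14.

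RNA polymerase II peaks covered TBX2 from upstream of its start to beyond its end, whereas the Flag-USP39 list had no peak there. Of the 15 POLR2A peaks, 11 formed a run in which neighbours lay at most 5 kb apart, a distance chosen after the data were seen. The run extended over 21.7 kb, chr17:59467197-59488876, and its peaks covered 57.7% of that span. They held 166 tags (95% exact Poisson interval 142 to 193, counting error only), out of 187 (161 to 216) in the 15 peaks. The gaps inside the run had a median of 660.5 bp and ranged from 44 to 3523 bp, and 6 of the 10 gaps were shorter than 1 kb. The nearest POLR2A peaks on either side lay 24444 bp before the run and 8483 bp after it. Less polymerase on each copy of a gene cannot be told apart from fewer cells that carry it, in this value or any other given here.

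**Figure D1:**
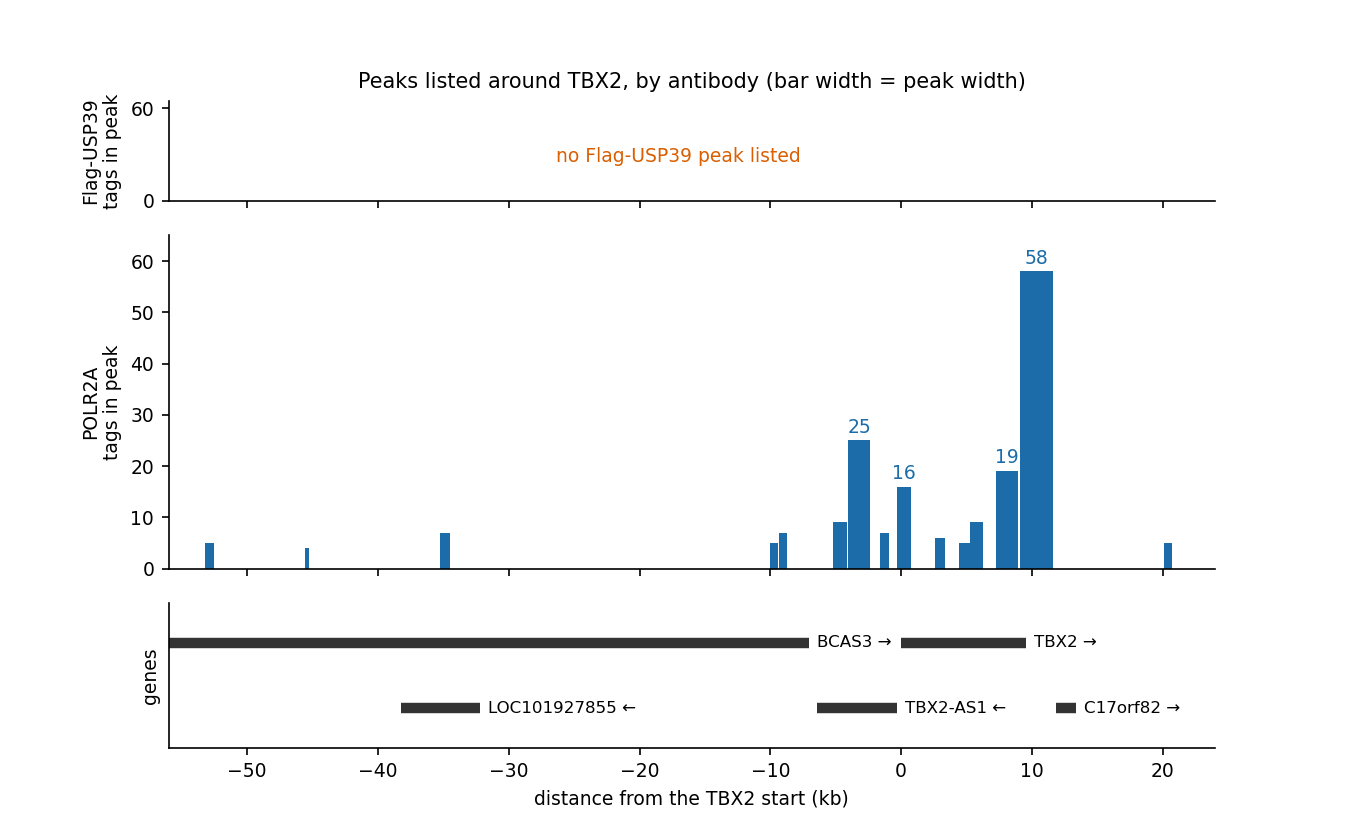
Tags in each listed peak (bar height) against distance from the TBX2 start in kb, with Flag-USP39 above, POLR2A below it and the gene spans of the peak tables at the bottom (arrows give the strand, and BCAS3 goes on beyond the left edge). No Flag-USP39 peak was listed, and the tallest POLR2A bar, of 58 tags, stands at the end of TBX2.

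The strongest peak of the locus stood at the end of TBX2, not at its start. It lay at chr17:59486340-59488876 and held 58 POLR2A tags (44.0 to 75.0), at a fold enrichment over background of 71.09. It covered the last 488 bp of TBX2 and the next 2049 bp, and ended 235 bp before the start of C17orf82. The tables place it in the promoter class of C17orf82, within 2 kb of a start site, with its centre at -1503 bp. Its summit was 9851 bp beyond the TBX2 start and at -2004 bp relative to that of C17orf82. Of the 14027 POLR2A peaks, 67 held more tags and 19 were wider than its 2537 bp. It carried 31.0% of the tags of the locus.

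A peak of 19 tags (11.4 to 29.7), chr17:59484505-59486187, adjoined it on the TBX2 side across a gap of 152 bp. This peak was 1683 bp wide, with a fold enrichment of 23.27. Polymerase tags were densest in the 58-tag peak alone, most of which lies past TBX2, with 22.9 tags per kb of peak. The adjoining 19-tag peak had 11.3, and the next densest peak of the locus, of 25 tags, had 15.2. Pooled, the 5 peaks of the run centred before the TBX2 start had 11.3, and the 5 centred within TBX2 had 10.5. The summed tags of these 2 groups were 53 and 55, against 58 in the single peak.

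At the TBX2 start itself a peak of 16 tags (9.1 to 26.0), chr17:59476928-59478017, had its summit 59 bp inside the gene and a fold enrichment of 37.81. Its span also took in the start of TBX2-AS1, so its tags cannot be assigned to either of these divergent genes. The peak was 1090 bp wide, and 271 POLR2A peaks of the list held more tags. Next to it, chr17:59475611-59476349 held 7 tags in the promoter class of both genes.

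Upstream of TBX2 the largest peak held 25 tags (16.2 to 36.9), chr17:59473220-59474867, with its summit at -3111 bp relative to the start and inside the span of TBX2-AS1. Its fold enrichment of 44.81 was higher than that of the peak at the TBX2 start. The intervals of the 25, 19 and 16 tags overlap, so counting error leaves the order of these 3 peaks undecided. The interval of the 58 tags lies above all of theirs. The other 3 upstream peaks of the run, centred at -9749, -9047 and -4674 bp relative to the TBX2 start, held 5, 7 and 9 tags, and the first 2 of these lay within the span of BCAS3.

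Inside TBX2 3 further peaks, centred 2949, 4857 and 5764 bp past the start, held 6, 5 and 9 tags. None of the 42 deposited lines of the locus is of the exon class, and none names TBX2 with the intron class, although 5 peaks were centred within TBX2. The 4 of them past the promoter are listed as upstream of TBX2-AS1 and C17orf82. In the whole POLR2A list none of the 1946 peaks with an upstream line also had an intron or exon line. Counted by symbol, TBX2 had 6 POLR2A peaks with 69 tags and C17orf82 had 8 with 136 tags, 2 of the peaks being shared, while the counts by position were those of the run above. For Flag-USP39 each of these counts was 0.

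The remaining peaks were small. The 3 listed in BCAS3 introns held 5, 4 and 7 tags, the last of them also assigned to LOC101927855, an uncharacterised noncoding RNA gene. A peak 8540 bp past the C17orf82 start, chr17:59497360-59497943, held 5 tags, and it was the last one of the locus, with no further POLR2A peak for 190 kb. The first of the BCAS3 peaks and this one are the members nearest the window's edges. Just outside the window the nearest POLR2A peaks held 8 tags in a BCAS3 intron, 59.8 kb before it, and 4 tags near NACA2, 88.4 kb after it. The nearest Flag-USP39 peaks held 3 tags each, 397 kb before the window in BCAS3 and 80.3 kb after it, upstream of NACA2.

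Set against the whole POLR2A list, the members were wide and rich in tags but not high in fold enrichment. Their median of 7 tags compares with 4 in the list, which is also the fewest tags of any listed POLR2A peak. More than these 4 tags were held by 14 of 15, against 37.7% of the list. The 15 are neighbouring peaks of 1 library, chosen from these same data, so the shares here are description only. At least 10 tags were held by 4 of 15, against 4.23%. Their median width was 760 bp against 497 bp in the list, which 14 of 15 exceeded, against 49.6% of the list. A width of 1 kb or more was reached by 5 of 15, against 1.85%. The median fold enrichment was 19.2 against 24.94, and 3 of 15 members exceeded the list's median, against 33.1% of the list. By class, from the transcript with the nearest start site, 3 were promoter peaks (17.9% of the list), 8 upstream (13.9%), 3 intronic and 1 intergenic. List shares of the intronic and intergenic classes were not computed, so those 2 counts are not compared with the list.

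**Figure D2:**
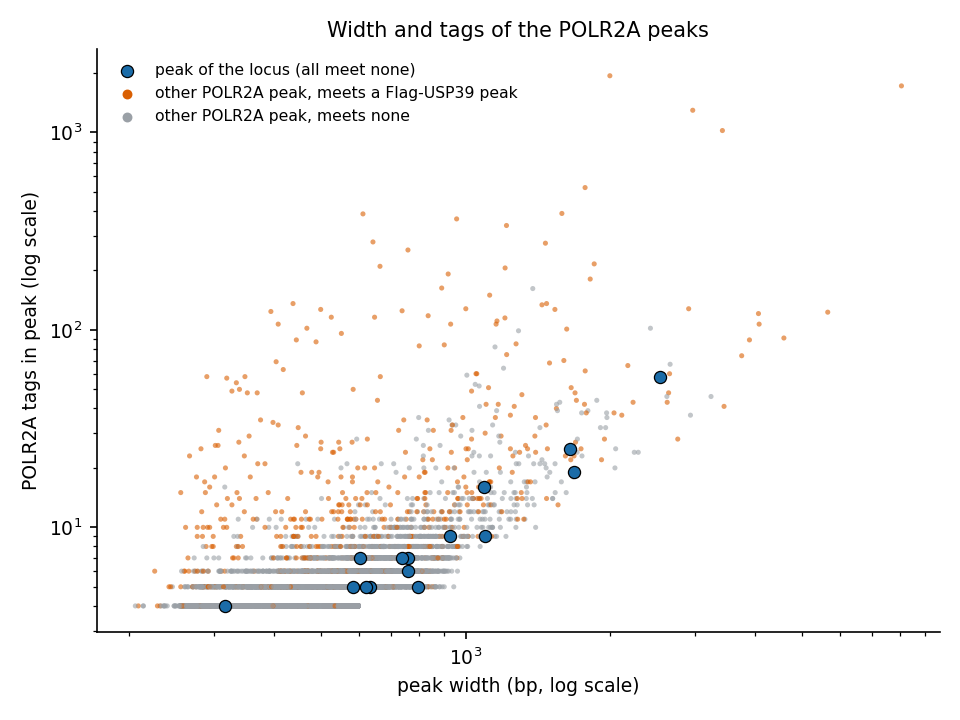
POLR2A tags in each peak (log scale) against peak width in bp (log scale) for all 14027 POLR2A peaks. The 15 peaks of the locus are blue, and other peaks are orange where they overlap a Flag-USP39 peak and grey where they do not; the widest member, at 2537 bp and 58 tags, is among the widest peaks drawn.

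None of the 15 POLR2A peaks overlapped a Flag-USP39 peak by 1 bp or more, against 94.9% of the POLR2A list that also met none. Because most POLR2A peaks have few tags, the strong members are better set against peaks of their own size. Among POLR2A peaks of 20 or more tags, 31.2% met no Flag-USP39 peak, and both such members, with 25 and 58 tags, were of this kind. Among the 71 POLR2A peaks of 58 or more tags, 8 (11.3%) met none, and the peak at the end of TBX2 is among them. Of the promoter-class peaks without a Flag-USP39 peak, 1 held more POLR2A tags, 67 at the histone gene HIST1H2BD, named after its values were seen. At 38 of the 50 POLR2A peaks of 40 to 80 tags a Flag-USP39 peak was listed, with 4 to 349 Flag-USP39 tags and a median of 45.5. For promoter-class peaks of that size the count was 10 of 17.

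The stretch of chromosome 17 without a Flag-USP39 peak was longer than the locus. It ran for 677 kb, from 59002823 to 59680281, against a median of 156 kb between neighbouring Flag-USP39 peaks, and 7.59% of such stretches were at least as long. It held 20 POLR2A peaks, of which 15 are the members of the locus. At least as many POLR2A peaks lay in 3 of 11541 stretches (0.026%), this one included. The stretch contains the 200 kb window, which has no Flag-USP39 peak, so it exceeds the median length by construction. Neither share is independent of the choice of the locus.

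Among runs of POLR2A peaks the one around TBX2 was the third by number of peaks. Of 12902 runs, 93.9% were single peaks, and 3 (0.0233%) held 11 or more. The first was the run at MIR612 and NEAT1, a nuclear noncoding RNA gene, with 9 Flag-USP39 and 16 POLR2A peaks. The run next to it in number, at MIR7641-2 on chromosome 1, had 3 and 14, and the run at TBX2 0 and 11. The run after TBX2, at HOXB-AS3 in a cluster of developmental HOX genes, had 1 Flag-USP39 peak of 4 tags and 10 POLR2A peaks. These runs were named after their values were seen. A run without a Flag-USP39 peak was not unusual: of 32 runs with 5 or more POLR2A peaks, 18 (56.2%) had none, among them the run at CCND2, which encodes cyclin D2, with 7 POLR2A peaks.

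**Figure D3:**
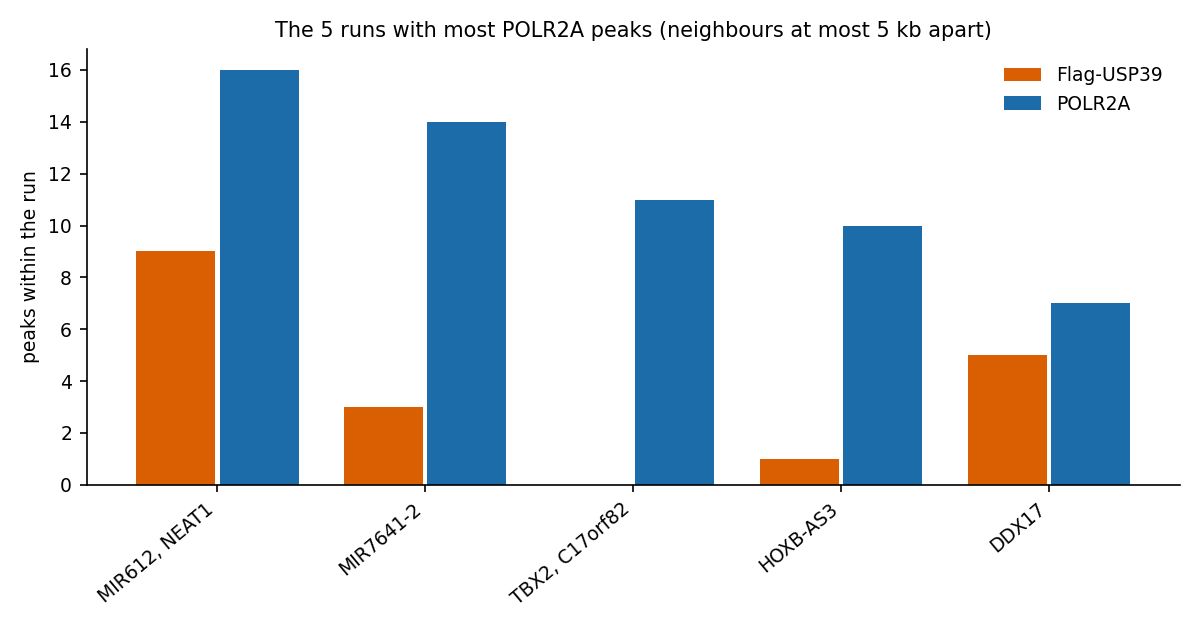
Number of Flag-USP39 (left bar) and POLR2A (right bar) peaks within each of the 5 runs with most POLR2A peaks, where neighbouring POLR2A peaks lie at most 5 kb apart; runs of equal number are ordered by their POLR2A tags. The run at TBX2 and C17orf82 has 0 Flag-USP39 and 11 POLR2A peaks.

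The locus was also set against fixed bins. The bin of TBX2 coincides with the window of the rule, so its counts are those of the members again and its rank is no separate support. Of 10876 bins of 200 kb that held a peak of either list, 7 (0.0644%) had at least the 15 POLR2A peaks of the TBX2 bin, and the median was 1. The other 6 had 1 to 19 Flag-USP39 peaks, and the TBX2 bin had none. Bins with no Flag-USP39 peak made up 30.8% of all bins and 15.4% of the 26 bins with 10 or more POLR2A peaks. By summed tags, 28 bins had at least the 187 POLR2A tags of the TBX2 bin, and in the other 27 at least 1 Flag-USP39 peak was listed.

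**Figure D4:**
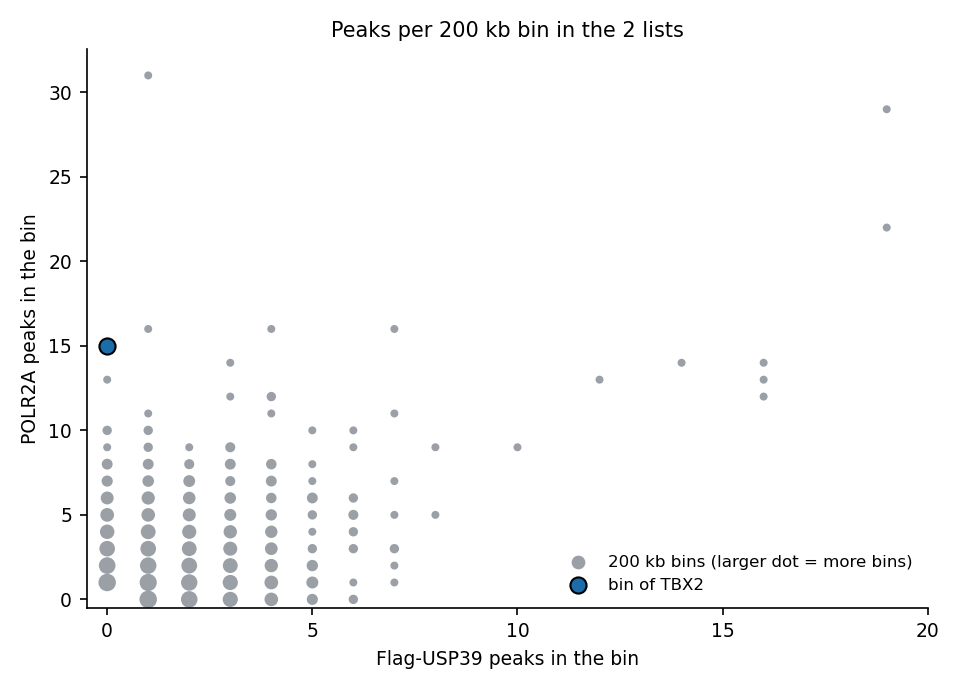
POLR2A peaks against Flag-USP39 peaks in each of 10876 bins of 200 kb, where a larger dot stands for more bins. The TBX2 bin, with 0 Flag-USP39 and 15 POLR2A peaks, has the most POLR2A peaks of the bins without a Flag-USP39 peak.

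The bins most like that of TBX2 were found by Euclidean distance over 4 values on a log2(value + 1) scale, the number of peaks and the summed tags of each antibody. The nearest were named by the symbol given to most of their peaks. None of the 4 nearest had a Flag-USP39 peak, which follows largely from the distance, since Flag-USP39 peaks and tags are among its values. The LINC01416 bin on chromosome 18 had 13 POLR2A peaks with 74 tags, at a distance of 1.34. The METAP1D bin on chromosome 2 had 10 with 72 tags, and the HIST1H2AI bin, in the histone cluster of chromosome 6, had 6 with 98. The RUSC1-AS1 bin on chromosome 1 had 10 with 69 tags, at a distance of 1.52. Each of these sums was below the 187 tags of the TBX2 bin.

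TBX2 was the only gene of the 17 in the T-box family list with a promoter peak, and that for POLR2A. TBX2 was chosen with its listed peaks known, so its place in the family follows in part from that choice. Of 17 T-box family genes, 5 had any Flag-USP39 peak and 7 any POLR2A peak, where 25.1% and 33.2% of protein-coding genes had one. None of the 17 had a Flag-USP39 promoter peak (2.47% of protein-coding genes) and 1, TBX2, had a POLR2A promoter peak (11.1%). TBX3 and TBX5, on chromosome 12, are the closest relatives of TBX2 and TBX4 and lie side by side as that pair does. TBX3, a repressor like TBX2, had 4 Flag-USP39 and 3 POLR2A peaks, all intergenic. The strongest of them overlapped, with 11 Flag-USP39 tags at chr12:115312146-115312535 and 12 POLR2A tags at chr12:115312218-115312500, and lay 190 kb from the TBX3 start. TBX5, a heart and forelimb factor, had 3 Flag-USP39 peaks of 3 tags each, the nearest at -46.3 kb from its start, and no POLR2A peak.

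The other T-box genes that had a listed peak held 3 to 6 tags in each. TBX15, known for skeletal development, had 3 POLR2A peaks of 4, 5 and 4 tags and no Flag-USP39 peak. MGA, which combines a T-box with a domain that pairs with MAX, had an exon peak of 6 POLR2A tags and no Flag-USP39 peak. EOMES, a regulator of early embryos and of T cells, had 3 Flag-USP39 peaks and 1 POLR2A peak, and a peak of 4 tags in each list overlapped 89.2 kb from its start. TBX18, a factor of the sinus node, had 1 peak of 4 tags in each list, at -223 and -294 kb from its start. TBX21, which directs T helper cells, had a Flag-USP39 peak of 5 tags, and TBX19, a pituitary factor, a POLR2A peak of 4 tags.

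Of 10 neighbouring genes on 17q23, counted by symbol, 3 had a Flag-USP39 peak (25.1% of protein-coding genes) and 5 a POLR2A peak (33.2%). None of the 10 had a promoter peak, for Flag-USP39 (2.47% of protein-coding genes) or for POLR2A (11.1%). BCAS3 had 1 Flag-USP39 peak of 3 tags and 10 POLR2A peaks of 4 to 10 tags under its symbol, 3 of them in the window. By position its span also held the first 2 peaks of the run, which are listed only as upstream of TBX2, so 5 POLR2A peaks and 0 Flag-USP39 peaks of the window lay within BCAS3. USP32, a ubiquitin-specific protease gene, had 4 POLR2A peaks of 4 tags each, and BRIP1, which encodes a DNA repair helicase, had 2 of 5 and 4 tags. Neither had a Flag-USP39 peak. C17orf64 and NACA2 each had a Flag-USP39 peak of 3 tags and a POLR2A peak of 4 tags, and in neither gene did the pair overlap.

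Genes reported as repressed by TBX2, or as lying downstream of TBX4, held few tags. Of 7 such genes, 4 had a Flag-USP39 peak and 4 a POLR2A peak, where 25.1% and 33.2% of protein-coding genes had one. CDKN1A, a cell cycle inhibitor, had a Flag-USP39 promoter peak of 8 tags at chr6:36642529-36642974, centred -1485 bp from its start and nearer to that of PANDAR, and no POLR2A peak. The growth factor gene FGF10 had a POLR2A promoter peak of 4 tags at -236 bp, nearer to the start of FGF10-AS1, and no Flag-USP39 promoter peak. The promoter counts were 1 of 7 for Flag-USP39 (2.47% of protein-coding genes) and 1 of 7 for POLR2A (11.1%). The remaining peaks, near CDKN2B, NDRG1, CDH1 and FGF10, held 3 to 5 tags.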

How the data were processed

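The submitters' processing notes name Bowtie2 2.2.4, MACS 1.4.3 and the build hg19. Duplicate treatment and the annotation release were not given in the sources used. Each deposited table gives 1 antibody's peaks over the shared input, as 20273 Flag-USP39 and 27766 POLR2A lines, 1 per peak and transcript. Tags per peak are counts, per the file headers. The score is -10 times the log10 of the p-value, per the file headers. Fold enrichment is the authors' ratio to background. FDR is a percent, per the file headers. These peak values are the authors' and served to describe and filter peaks. Peaks were taken once, with the class of the nearest start site, and compared by overlap of 1 bp or more, in runs and in 200 kb bins (Python 3.11.15, pandas 2.3.3, scipy 1.17.1), checked on simulated peaks. Groups came from the antibody label. With 1 library per group no test was made; 95% Poisson intervals cover counting error only, and PCR copies are not independent molecules. Members and lists were chosen with earlier results of these data known. Named genes were the members, the symbols at their peaks, T-box, 17q23 and target genes, markers, and the symbols of the likest bins, and some of these are not reported here; the MACS p-value thresholds of the lists were read from their lowest scores, 50 and 40.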

Additional observations from a re-analysis of the deposited data

How the results depend on the processing

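The 27 recomputed Flag-USP39 values follow from a count of 0 and say nothing about stability. Of the other 29 values, 24 stayed within 1.5 times the reported count or gap, or within the 95% exact binomial interval of the reported share. The 5 that moved all came with a score of at least 100 (p at most 1e-10) in both lists, which leaves fewer peaks by construction. There the locus kept 4 POLR2A peaks with 118 tags, a median gap of 2060 bp between them, against 1075 bp for all 15, and 2 POLR2A peaks in the run at TBX2, and 1.93% of the 200 kb bins had at least as many POLR2A peaks. At a score of at least 50 in both lists the locus had 0 Flag-USP39 and 11 POLR2A peaks. By symbol alone it had 0 and 12, and with the window widened by 50 kb on each side 0 and 15. The run, whose settings were added after the data were seen, had 9 POLR2A peaks with neighbours at most 2 kb apart and 12 at most 10 kb apart. No Flag-USP39 peak was listed in the locus under any setting run, so no gap between Flag-USP39 peaks could be computed. No paired analysis was possible because each group had 1 library. Depth limits every value: 5 of the 15 POLR2A peaks held 4 or 5 tags.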
